A study of Mus musculus with 18 samples.

Results

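The genes described here are 39 genes of the lysosome, taken by symbol from the 17198 genes of the deposited table. They encode 10 proteases, 9 glycosidases, 4 sulfatases, 6 lipid hydrolases or their activators, 7 membrane proteins, 2 other lumenal proteins (Npc2 and Grn) and the transcription factor Tfeb. All 39 were measured, and the filter on low values removed 0 of them. RNA was sequenced from mouse cultures whose labels call them dorsal root ganglion (DRG) neurons, which carry touch, pain and position sense to the spinal cord. Wild type (WT) cultures were compared with cultures heterozygous for a Dynlrb1 allele, Dynlrb1(tm1a/+), called HET here. Dynlrb1 is a roadblock-type light chain of the dynein motor, which moves lysosomes and other cargo toward the cell body. Each genotype had 3 cultures at 12 h, 3 at 24 h and 3 at 48 h in culture, 18 in all, with replicate numbers 1, 2 and 5 at the earlier times and 1, 2 and 3 at 48 h. A tm1a allele is a knockout-first insertion present in every cell of the animal, so glia and other cells of the culture carried it too, and HET cells kept 1 wild-type copy. Age and sex of the mice and a treatment were not named in the labels, nor whether replicates came from separate animals, so p-values measure the spread between cultures.

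Lysosomes are acidic compartments in which soluble hydrolases digest proteins, glycans and lipids. Most of these enzymes receive a mannose-phosphate tag and are carried to late endosomes by sorting receptors. In neurons, late endosomes and lysosomes formed in axons move to the cell body on dynein, and inherited loss of many of these hydrolases causes neurodegenerative storage disease. Tfeb and its relatives Tfe3 and Mitf are transcription factors known to bind an E-box, the CLEAR element with the core CACGTG, in promoters of lysosomal genes.

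Dynlrb1 (chr2:155236533-155250277, GRCm38) separated the genotypes at every time. Its normalized count, the authors' scaled read count per gene, ran from 5229 to 6674 in the 9 WT cultures and from 2716 to 4087 in the 9 HET cultures, without overlap. Averaged over the 3 times it was at 56.3% of WT, or -0.83 on the log2 scale (SE 0.071, limma with Benjamini-Hochberg adjustment, adjusted p = 2.85e-05). At single times the log2 fold changes were -0.78, -0.86 and -0.84 with limma adjusted p of 0.0655, 0.0390 and 0.0501 at 12, 24 and 48 h. The call at 24 h was lost in 18 of 27 alternative settings. With a replicate block the limma adjusted p at 48 h was 0.00324. Without HET 48 h replicate 3 it was 0.222 without a block and 0.0499 with it. Across genes, r between 2 cultures of a group was 0.978 to 0.992. Markers of neurons summed to between 5253 and 7784 FPKM (fragments per kilobase scaled to library size, a level per gene length), above glial markers (473 to 695), endothelial markers (57.0 to 116) and macrophage markers (15.8 to 41.6), and no marker was at 0. Of the glial sum, 89.7% came from Pmp22 and S100b, and without them it was 32.8 to 76.4 FPKM. Of the fibroblast sum, 78.5% came from Thy1, which neurons also express, and without Thy1 it was 43.3 to 165 FPKM. HET 48 h replicate 3 stood apart at its time: 6 neutrophil and red cell genes summed to 68.3 FPKM there and to 5.86 and 7.77 in the other 2 HET cultures of that time. This sum also varied within earlier groups, from 6.64 to 234 FPKM in WT at 12 h and from 41.4 to 149 in HET at 24 h. Counts of calls that rest on HET 48 h replicate 3 are given with and without it. In such bulk samples, fewer cells of a type and less RNA per cell cannot be told apart.

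Lysosomal genes were among the more abundant transcripts of these cultures. The median of the 39 mean levels was 28.5 FPKM, against 5.63 FPKM over all genes, and 33 of the 39 lay above that all-gene median. Ctsd, the aspartic protease cathepsin D, was highest at a mean of 849 FPKM. It was followed by Psap (628 FPKM), the precursor of the saposins that help sphingolipid hydrolases, and by the cysteine proteases Ctsl (613 FPKM) and Ctsb (478 FPKM). These 4 genes made up 62.3% of the summed level of the 39. Proteases as a class held 55.2% of it, lipid hydrolases and activators 18.4%, membrane proteins 15.9%, glycosidases 6.38% and sulfatases 2.40%. Lamp1 (260 FPKM) and Lamp2 (178 FPKM), the main glycoproteins of the lysosomal membrane, were the highest membrane genes. At the other end, 9 genes had means under 10 FPKM, among them Sgsh (3.15 FPKM), Tfeb (2.66 FPKM) and the mannosidase gene Manba (1.70 FPKM). The spread over the 18 cultures differed between the genes. Psap and Lamp2 varied least, with a ratio of highest to lowest culture of 1.22 and 1.23, while Gusb (4.79), Arsb (4.67), Ctsh (4.24) and Cd63 (4.06) varied most.

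**Figure D1:**
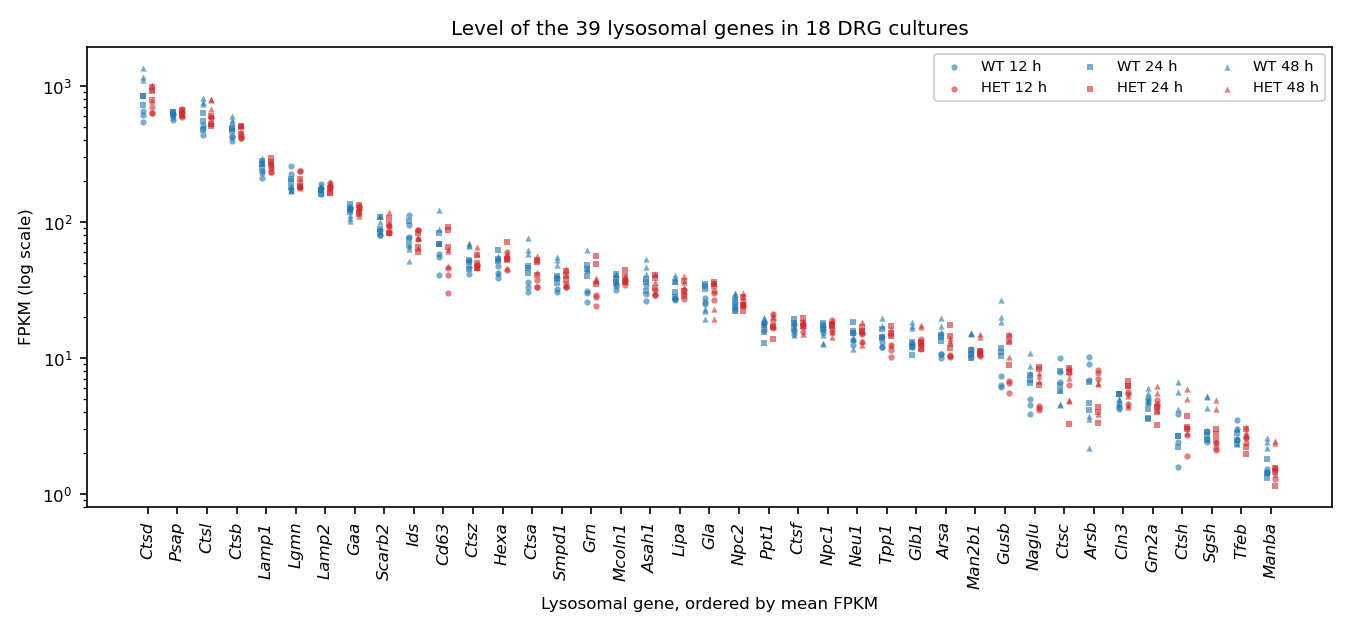
FPKM on a log axis of the 39 lysosomal genes in each of the 18 cultures, ordered by mean level, with blue points for WT, red points for HET and a marker shape for each time. Ctsd, Psap, Ctsl and Ctsb lie highest and Manba lowest, and the points of Gusb, Arsb, Ctsh and Cd63 are the most widely spread.

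Promoters of these genes were searched for the CLEAR core, which Tfeb and its relatives are known to bind. In RefSeq promoter windows of the build GRCm38.p6, from 250 bases before to 50 bases after a gene's start, 35 of the 39 genes were matched (not Ctsb, Npc1, Asah1 and Ctsh). CACGTG, which reads the same on both strands, was found in 14 of the 35, or 40%, against 8.09% of 27025 genes with such windows. Those 27025 are all RefSeq genes with a window, not the 17198 genes measured here. They were not matched to the lysosomal genes in level or base composition, so the shares are a description. The CLEAR element is already known from promoters of lysosomal genes, so a larger share among such genes is not an independent result. The longer TCACGTGA, which contains it, was found in 5 (Cln3, Ctsa, Ctsd, Gla and Mcoln1), or 14.3%, against 1.12% of all genes. The full CLEAR palindrome was found in the window of Cln3 alone, and in 0.37% of all genes. The 100 bases just upstream of the start used for each window are shown, with CACGTG in capitals. They are given for 3 genes that rose in both genotypes (Ctsd, Naglu and Gusb) and for 2 membrane genes with several copies (Lamp1 and Mcoln1). For Naglu that start lies a few bases inside the gene span printed below.
Ctsd promoter, chr7:142387828-142387927, minus strand: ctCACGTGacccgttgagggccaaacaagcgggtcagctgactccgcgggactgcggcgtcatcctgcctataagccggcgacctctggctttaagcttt
Naglu promoter, chr11:101069994-101070093, plus strand: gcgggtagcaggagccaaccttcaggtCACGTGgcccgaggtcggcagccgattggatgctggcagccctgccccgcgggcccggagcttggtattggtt
Lamp1 promoter, chr8:13159061-13159160, plus strand: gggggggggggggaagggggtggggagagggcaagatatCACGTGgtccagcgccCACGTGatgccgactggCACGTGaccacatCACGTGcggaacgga
Mcoln1 promoter, chr8:3500419-3500518, plus strand: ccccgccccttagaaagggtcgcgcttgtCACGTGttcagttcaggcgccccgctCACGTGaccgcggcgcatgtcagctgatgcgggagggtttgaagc
Gusb promoter, chr5:130003050-130003149, minus strand: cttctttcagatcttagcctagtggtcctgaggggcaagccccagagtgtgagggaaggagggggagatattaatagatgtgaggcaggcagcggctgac
In these stretches Lamp1 held 4 copies of the core, Mcoln1 held 2, Ctsd and Naglu 1 each, and Gusb 0. A match is a description of the letters and does not show that a factor bound there.

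In WT cultures most lysosomal genes rose between 12 and 48 h. Of the 39, 27 passed the threshold (limma, adjusted p under 0.05), 23 higher and 4 lower. Over all genes 47.1% were called, 30% higher and 17.1% lower. The median log2 fold change of the 39 was 0.36, and that of all genes was 0.11. In 23 of the 39 all 48 h cultures lay above all 12 h cultures and in 6 they lay below, a lack of overlap found in 55.3% of all genes (34.6% above, 20.7% below). The summed level of the 39 went from 3561 ± 157 FPKM at 12 h through 4042 ± 196 to 4833 ± 243 by 48 h (SD, n = 3 each).

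Among proteases, 7 of 10 rose in WT and 1 fell. Ctsh, a cysteine protease that acts mainly as an aminopeptidase (chr9:90054267-90076095), had normalized counts in WT of 260, 161 and 106 at 12 h, 179, 178 and 148 at 24 h, and 449, 380 and 281 at 48 h. Every 48 h culture was above every 12 h and 24 h culture. Its log2 fold change from 12 to 48 h was 1.14 (SE 0.31, limma adjusted p = 0.00595). In HET the counts were 206, 126 and 182, then 200, 209 and 252, then 397, 337 and 188, and the lowest 48 h culture, replicate 3, overlapped the 12 h range (log2 fold change 0.80, limma adjusted p = 0.0838).

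Ctsd (chr7:142375910-142387827) had WT counts of 53234, 49807 and 44307 at 12 h, 68439, 59213 and 68507 at 24 h, and 89478, 110619 and 94216 at 48 h. The 3 times did not overlap, and the log2 fold change from 12 to 48 h was 0.996 (SE 0.12, limma adjusted p = 3.06e-05). HET counts were 51197, 51848 and 57283, then 74570, 63777 and 80328, then 77558, 82252 and 63548. The HET cultures of 48 h lay above those of 12 h and overlapped those of 24 h. The other proteases that rose in WT were Ctsa, a carboxypeptidase that also protects the galactosidase and sialidase (log2 fold change 0.98), Ctsl (0.69), Ctsz (0.54), the tripeptidyl peptidase Tpp1 (0.48) and Ctsb (0.46). Ctsf (0.04) and the asparaginyl endopeptidase Lgmn (-0.30) did not pass.

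Ctsc, the dipeptidyl peptidase that activates granule proteases of leukocytes (chr7:88278024-88315861), fell. Its WT counts were 1013, 811 and 684 at 12 h, 581, 644 and 813 at 24 h, and 467, 597 and 460 at 48 h. All 48 h cultures were below all 12 h cultures, with a log2 fold change of -0.71 (limma, SE 0.28, adjusted p = 0.0454). In HET they were 646, 791 and 852, then 335, 803 and 866, then 499, 731 and 491, which overlapped. The WT call of Ctsc had the highest adjusted p of the 27 and was lost in 9 of the 18 fits that left out 1 culture.

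Among glycosidases, 5 of 9 rose in WT and 1 fell. Gusb, the glucuronidase that acts on glycosaminoglycans (chr5:129989011-130003049), had the largest rise of the 39. Its WT counts were 742, 641 and 618 at 12 h, 1123, 1205 and 1051 at 24 h, and 2034, 2700 and 1866 at 48 h. The 3 times did not overlap, and the log2 fold change from 12 to 48 h was 1.71 (SE 0.18, limma adjusted p = 2.23e-05). HET cultures had 683, 563 and 665, then 1337, 903 and 1466, then 1520, 1386 and 1029. At 48 h all HET cultures were above the 12 h cultures and below every WT culture of 48 h.

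Naglu, the acetylglucosaminidase of heparan sulfate breakdown (chr11:101070090-101077672), had WT counts of 509, 396 and 462 at 12 h, 706, 673 and 767 at 24 h, and 789, 1116 and 898 at 48 h. No 2 times overlapped, and the log2 fold change from 12 to 48 h was 1.03 (SE 0.14, limma adjusted p = 6.08e-05). In HET it had 423, 452 and 439, then 847, 651 and 880, then 688, 788 and 750. HET cultures had thus left the 12 h range by 24 h, and 24 and 48 h overlapped. Manba (0.69), the mannosidase gene Man2b1 (0.49) and the galactosidase gene Glb1 (0.47) also rose in WT.

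Gaa, the acid glucosidase that breaks down glycogen (chr11:119267963-119285458), was the glycosidase gene that fell, and by little. In WT it had 19431, 19725 and 18993 at 12 h, 18646, 20590 and 17901 at 24 h, and 16380, 15519 and 17258 at 48 h. The 48 h cultures were all below the 12 h cultures (log2 fold change -0.24, SE 0.083, limma adjusted p = 0.0234). The HET cultures had 19971, 19724 and 18897, then 20429, 17400 and 17991, then 18011, 16708 and 19774, and the times overlapped.

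Hexa, the alpha subunit of the hexosaminidase that digests GM2 ganglioside (chr9:59539540-59565109), did not pass in either genotype. Its WT counts were 3016, 3283 and 3647 at 12 h, 4135, 4016 and 4781 at 24 h, and 3240, 4143 and 4332 at 48 h. Its HET counts were 3427, 4234 and 4685, then 4059, 4138 and 5535, then 3538, 4408 and 4614. The genotypes overlapped at each time. The galactosidase gene Gla (-0.29) and the sialidase gene Neu1 (-0.05) did not pass in WT either.

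The 4 sulfatase genes split, with 2 higher and 2 lower in WT. Sgsh, the sulfamidase of heparan sulfate (chr11:119343489-119355510), had WT counts of 430, 456 and 519 at 12 h, 447, 483 and 506 at 24 h, and 922, 943 and 768 at 48 h. The rise lay between 24 and 48 h, with a log2 fold change from 12 to 48 h of 0.90 (SE 0.19, limma adjusted p = 0.00111). In HET the counts were 388, 378 and 425, then 534, 442 and 493, then 871, 754 and 430. HET replicates 1 and 2 at 48 h were near the WT cultures, and replicate 3 was below every HET culture of 24 h. Arsa, the sulfatase of sulfatide in myelin, rose with a log2 fold change of 0.73. Sgsh and Gaa lie 58.0 kb apart on chromosome 11.

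Arsb, the sulfatase of dermatan and chondroitin sulfate (chr13:93771679-93943016), had the largest fall. In WT it had 1143, 1480 and 1677 at 12 h, 771, 1097 and 678 at 24 h, and 588, 359 and 620 at 48 h. Each time lay below the one before it, with a log2 fold change from 12 to 48 h of -1.48 (SE 0.24, limma adjusted p = 1.51e-04). In HET it had 1341, 1282 and 1152, then 718, 657 and 550, then 1061, 633 and 1079. Replicates 1 and 3 of HET at 48 h were above all HET cultures of 24 h.

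Ids, the iduronate sulfatase encoded on the X chromosome (chrX:70343069-70385834), had WT counts of 16086, 19754 and 23242 at 12 h, 15528, 20996 and 13875 at 24 h, and 13730, 10589 and 13090 at 48 h. The 48 h cultures were below all 12 h and 24 h cultures (log2 fold change from 12 to 48 h -0.65, SE 0.16, limma adjusted p = 0.00365). HET counts were 18069, 15548 and 17955, then 16991, 13573 and 12460, then 15671, 13167 and 15711, and the times overlapped.

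Of the 6 genes for lipid hydrolases and activators, 3 rose in WT and 0 fell. They were Asah1, the acid ceramidase (log2 fold change 0.66), Smpd1, the acid sphingomyelinase (0.62), and Lipa, the acid lipase of cholesteryl esters (0.51). The activator Gm2a (0.15), the thioesterase Ppt1 (0.12) and Psap (0.04) did not pass. Both soluble lumenal proteins rose: Grn, the progranulin gene (0.80), and Npc2, a cholesterol carrier (0.31). Tfeb itself did not pass (-0.18, SE 0.17, limma adjusted p = 0.413), with 292, 336 and 238 at 12 h and 287, 224 and 251 at 48 h in WT.

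Of the 7 membrane genes, 4 rose in WT and 0 fell. Cd63, a tetraspanin of late endosomes and exosomes (chr10:128896231-128912822), had WT counts of 2138, 2285 and 1585 at 12 h, 2700, 3252 and 2675 at 24 h, and 3484, 4749 and 2745 at 48 h. The cultures of 48 h were above those of 12 h and overlapped those of 24 h (log2 fold change from 12 to 48 h 0.85, SE 0.20, limma adjusted p = 0.00272). In HET it had 1781, 1169 and 1584, then 3603, 2570 and 3416, then 2368, 2453 and 1855. HET cultures were highest at 24 h, and all 3 of 48 h lay below all 3 of 24 h. The receptor of glucocerebrosidase Scarb2 (0.36), Lamp1 (0.31) and the calcium channel Mcoln1 (0.25) rose too. With the authors' other scaling the limma call of Mcoln1 was lost, and with quantile normalization those of Mcoln1 and Gaa.

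Npc1, the membrane protein that exports cholesterol from lysosomes, had WT counts of 3435, 3295 and 3632 at 12 h, 3772, 3930 and 3502 at 24 h, and 2788, 2740 and 3182 at 48 h. The 48 h cultures were below the others, and the log2 fold change from 12 to 48 h of -0.25 (SE 0.10) narrowly missed (limma adjusted p = 0.0522). The HET cultures had 3497, 3323 and 4124, then 3827, 3712 and 3748, then 3073, 3322 and 4011, all overlapping. Cln3, the membrane protein lost in juvenile Batten disease (chr7:126571207-126585817), had WT counts of 449, 432 and 474, then 555, 557 and 554, then 469, 515 and 512. In HET it had 470, 557 and 582, then 636, 640 and 694, then 446, 466 and 544. Both genotypes were highest at 24 h. From 24 to 48 h Cln3 fell in HET (log2 fold change -0.44, limma adjusted p = 0.0446).

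**Figure D2:**
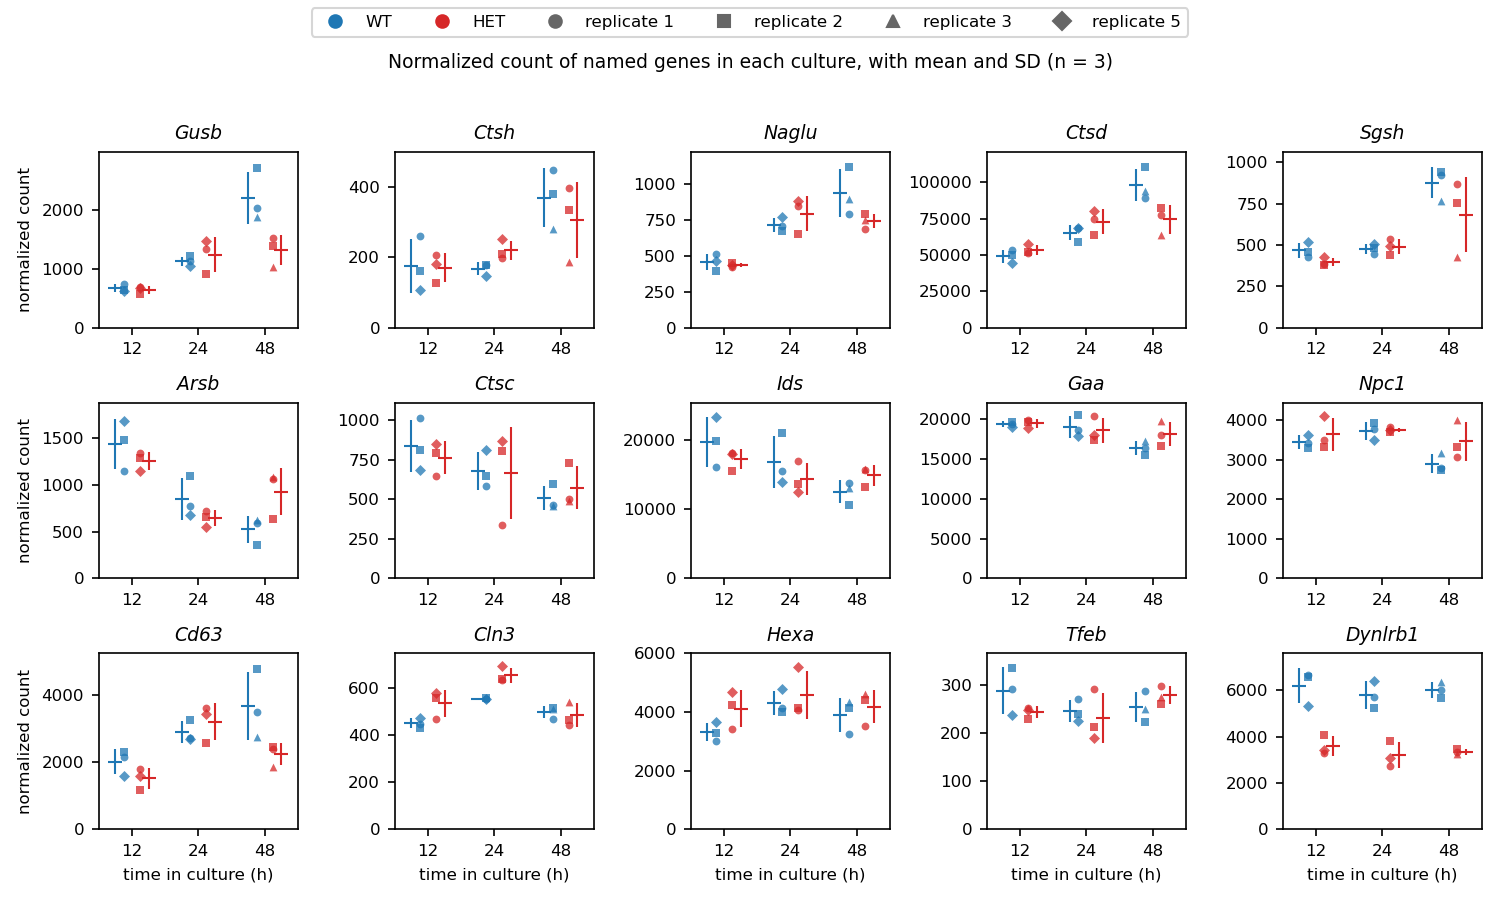
Normalized count (y axis, from 0) against time in culture for 14 lysosomal genes and Dynlrb1, with a point per culture, blue for WT and red for HET, marker shapes for replicate numbers, and bars for the mean and SD (n = 3). Gusb, Naglu and Ctsd climb and Arsb drops with time, and Dynlrb1 is lower in HET than in WT throughout.

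Genes with and without a promoter match to the core are counted here as a description. Of the 14 with CACGTG, such as Lamp1, Mcoln1, Ctsd and Naglu printed above, 9 rose in WT from 12 to 48 h, 1 fell (Gaa) and 4 did not pass, with a median log2 fold change of 0.39. Of the 21 without it, such as Gusb, 11 rose, 3 fell and 7 did not pass, with a median of 0.31. The difference between these groups was not tested.

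In WT more lysosomal genes passed from 24 to 48 h than from 12 to 24 h, as did more of all genes. From 12 to 24 h, 4 of the 39 rose (Naglu 0.66, Gusb 0.76, Grn 0.63 and Arsa 0.43) and 0 fell, with 3.62% of all genes called (2.96% higher, 0.657% lower). This count depended on single cultures. It was 0 without WT 12 h replicate 2 or 5 and without WT 24 h replicate 1, 2 or 5, 1 without WT 12 h replicate 1, and 7 without HET 48 h replicate 3, which enters through the shared spread. From 24 to 48 h, 16 rose and 3 fell (Gla, Npc1 and Arsb), with 27.7% of all genes called (17.4% higher, 10.3% lower). With the authors' other scaling this split was 13 and 5. The count was 10 without WT 24 h replicate 2 and 11 without WT 48 h replicate 2. The largest rises of that interval were those of Ctsh (1.11), Gusb (0.95) and Sgsh (0.87).

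Without a replicate block, fewer lysosomal genes passed from 12 to 48 h in HET cultures than in WT. The count was 9 of 39, all higher, against 14.2% of all genes (10.6% higher, 3.62% lower), and the median log2 fold change was 0.23 against 0.10 over all genes. They were the proteases Ctsa (0.55), Ctsd (0.47) and Ctsl (0.41), the glycosidases Gusb (1.03), Naglu (0.76) and Man2b1 (0.34), the sulfatases Sgsh (0.73) and Arsa (0.37), and Grn (0.48). None of the 13 lipid and membrane genes passed (0), with 3 of them at an unadjusted p under 0.05, against 32.0% of all genes. Without HET 48 h replicate 3, Lipa (0.38), Asah1 (0.38), Smpd1 (0.33) and Cd63 (0.69) of these did pass. All 9 genes called with every culture were also called higher in WT. The overlap was thus 9 of the 9 HET genes and 9 of the 27 WT genes. In 15 of the 39 all HET cultures of 48 h were above those of 12 h and in 1 (Arsb) below, against 29.7% of all genes (21.6% above, 8.12% below). The summed level of the 39 went from 3774 ± 99.8 FPKM at 12 h through 4163 ± 278 to 4382 ± 216 by 48 h (SD, n = 3 each).

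The HET count turned on the replicate block and on single cultures. With the replicate block it was 20 of 39, against 29.6% of all genes. With no block, and without HET 48 h replicate 3, it was 20 of 39, 19 higher and 1 lower (Gla), with 28.4% of all genes called. Of the 20 in that fit, 19 were also called in WT. Without HET 12 h replicate 2, HET 48 h replicate 1 or HET 48 h replicate 2 it was 0, and without HET 12 h replicate 1 it was 3. Replicate 3 was the lowest HET culture of 48 h for Gusb, Ctsd, Ctsh, Sgsh and Cd63. It had 18 of the 39 genes above their own mean over the 18 cultures, against 26 and 29 in the other HET cultures of 48 h.

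From 12 to 24 h, 10 of the 39 passed in HET, 9 higher and 1 lower, against 18.9% of all genes (13.1% higher, 5.76% lower). The largest were Cd63 (1.09, SE 0.20), Arsb (-0.98, SE 0.24), Gusb (0.93, SE 0.18), Naglu (0.84, SE 0.14) and Grn (0.77, SE 0.15). Arsa, Ctsa, Tpp1, Ctsd and Lamp1 rose by 0.23 to 0.47 on the log2 scale. The 4 genes called in WT over the same interval were all among these 10. The HET count was 6 without HET 12 h replicate 2 and 5 without HET 24 h replicate 1. From 24 to 48 h, Ctsl rose (0.46) and Cln3 fell in HET, 2 of 39 against 2.49% of all genes (1.42% higher, 1.08% lower). That count was 8 without HET 48 h replicate 3, and 0 or 1 in 14 of the other fits without 1 culture.

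The time courses of the genotypes were set side by side. All 27 genes called in WT from 12 to 48 h had the same sign in HET, and all 27 had the smaller size there, with a median size of 0.66 in WT and 0.35 in HET on the log2 scale. Without HET 48 h replicate 3, 25 of the 27 were smaller in HET, with a median of 0.45. The 27 were selected on their WT change, so this is a description with no test. The difference of the changes themselves, fitted for each gene as HET minus WT, passed in 0 of the 39, against 0% of all genes. Of the 39, 7 had an unadjusted p under 0.05, against 8.92% of all genes. The median difference was -0.16 against -0.01 over all genes. Ctsd (-0.52, 95% interval -0.88 to -0.17), Arsb (0.99, 0.29 to 1.70), Gusb (-0.68, -1.22 to -0.14) and Smpd1 (-0.40, -0.71 to -0.08) had the lowest p, with a limma adjusted p of 0.548 each. Without HET 48 h replicate 3 the count was also 0.

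**Figure D3:**
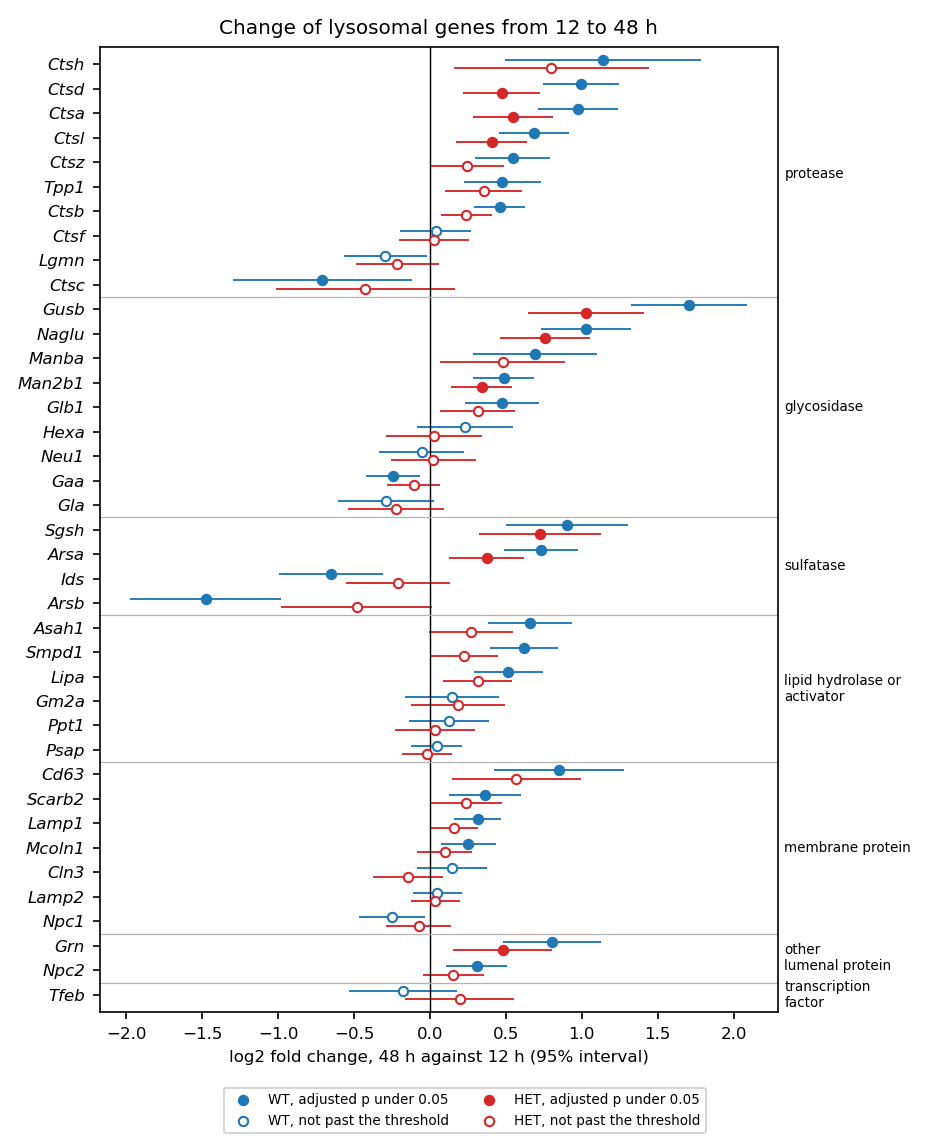
Log2 fold change from 12 to 48 h (x axis) with its 95% interval for each of the 39 genes, grouped by role, in WT (blue) and HET (red), with filled points past the limma threshold. Most points lie right of 0, and of the 27 filled WT points 9 have a filled HET point.

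Between genotypes, without a replicate block, no lysosomal gene passed at any time in limma. At 12 h the count was 0 of 39, against 0.00581% of all genes, with 2 at an unadjusted p under 0.05 (Cln3 0.24 and Ctsl 0.24), and the median log2 fold change was 0.02 against -0.02 over all genes. At 24 h it was 0, against 0.00581%, with 1 at an unadjusted p under 0.05 (Cln3 0.24) and a median of 0.04 against 0.01. Averaged over the 3 times it was 0, against 0.0174%, with 3 at an unadjusted p under 0.05 and the lowest limma adjusted p at 0.313. The 6 genes with the lowest p in that average were Cd63 (-0.32, 95% interval -0.57 to -0.07), Cln3 (0.15, 0.01 to 0.28), Gusb (-0.24, -0.46 to -0.02), Npc1 (0.11, -0.01 to 0.24), Sgsh (-0.21, -0.44 to 0.02) and Hexa (0.16, -0.02 to 0.34).

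At 48 h the count depended on the replicate number. It was 0 of 39 without a replicate block, against 0% of all genes. At that time same-numbered cultures of the genotypes deviated together (r 0.32, 0.21 and 0.46), and with a replicate block limma called 6, Arsb higher and Gusb, Smpd1, Cd63, Ctsd and Asah1 lower, against 10.4% of all genes. With a separate block at each time it was 9, those 6 with Npc1 higher and Ctsa and Arsa lower, against 12.3%. With the replicate block and without HET 48 h replicate 3 it was 0, against 0.355%, with the lowest limma adjusted p at 0.0986. In the fit with the replicate block, limma adjusted p was 0.0109 for Gusb, 0.0263 for Cd63 and 0.0290 for Arsb. It was 0.0343 for Smpd1, 0.0377 for Ctsd and 0.0485 for Asah1. The values that follow are from the fit without a block. Of the 39, 14 had an unadjusted p under 0.05, as had 22.0% of all genes. The median log2 fold change was -0.08 against -0.03 over all genes, with 14 above and 25 below 0. In 1 gene (Arsb) all HET cultures lay above all WT cultures and in 10 below, against 24% of all genes (9.57% above, 14.4% below). The 10 were Gusb, Naglu, Smpd1, Cd63, Grn, Arsa and the proteases Ctsd, Ctsa, Ctsz and Ctsb.

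Gusb had the lowest p, with 1029 to 1520 in HET and 1866 to 2700 in WT, or 59.6% of WT (log2 fold change -0.75, 95% interval -1.13 to -0.37, limma adjusted p = 0.0532). Arsb went the other way, with 633 to 1079 in HET and 359 to 620 in WT (0.82, interval 0.32 to 1.32, limma adjusted p = 0.0714). Cd63 ran from 1855 to 2453 in HET and from 2745 to 4749 in WT (-0.69, interval -1.12 to -0.26, limma adjusted p = 0.0760). These 3 did not overlap between genotypes. Smpd1 had 4075, 4486 and 3414 in HET and 4790, 5557 and 5219 in WT (-0.38, limma adjusted p = 0.0651). Ctsd (-0.40), Arsa (-0.37), Asah1 (-0.39), Ctsa (-0.37) and Grn (-0.41) had limma adjusted p from 0.0781 to 0.132. On chromosome 2, Ctsa lies 9.58 Mb and Ctsz 19.2 Mb from Dynlrb1. The levels of Lamp1 (-0.08, interval -0.23 to 0.08), Lamp2 (0.06, interval -0.10 to 0.22) and Psap (0.03, interval -0.14 to 0.20) were held by their intervals to within 0.23 of WT on the log2 scale. Tfeb had 299, 262 and 276 in HET and 287, 224 and 251 in WT, which overlapped (0.14, interval -0.22 to 0.49).

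The count without a block moved with single cultures too. It was 3 without WT 48 h replicate 3 (Gusb, Cd63 and Arsb), 3 without HET 48 h replicate 2 (Gusb, Arsb and Smpd1) and 1 without HET 48 h replicate 1 (Gusb). Without HET 48 h replicate 3 it was 0, again with 0% of all genes. In that fit 7 of the 39 had an unadjusted p under 0.05, against 11.5% of all genes. The values of Gusb (-0.58), Arsb (0.69), Cd63 (-0.57), Ctsd (-0.29) and Smpd1 (-0.28) were then smaller, and that of Sgsh went from -0.41 to -0.11. The comparison shares the WT 48 h cultures with the WT time course, so the values of a gene in both are not independent. Gusb had 1.71 over time in WT beside -0.75 between genotypes, and Arsb had -1.48 beside 0.82.

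**Figure D4:**
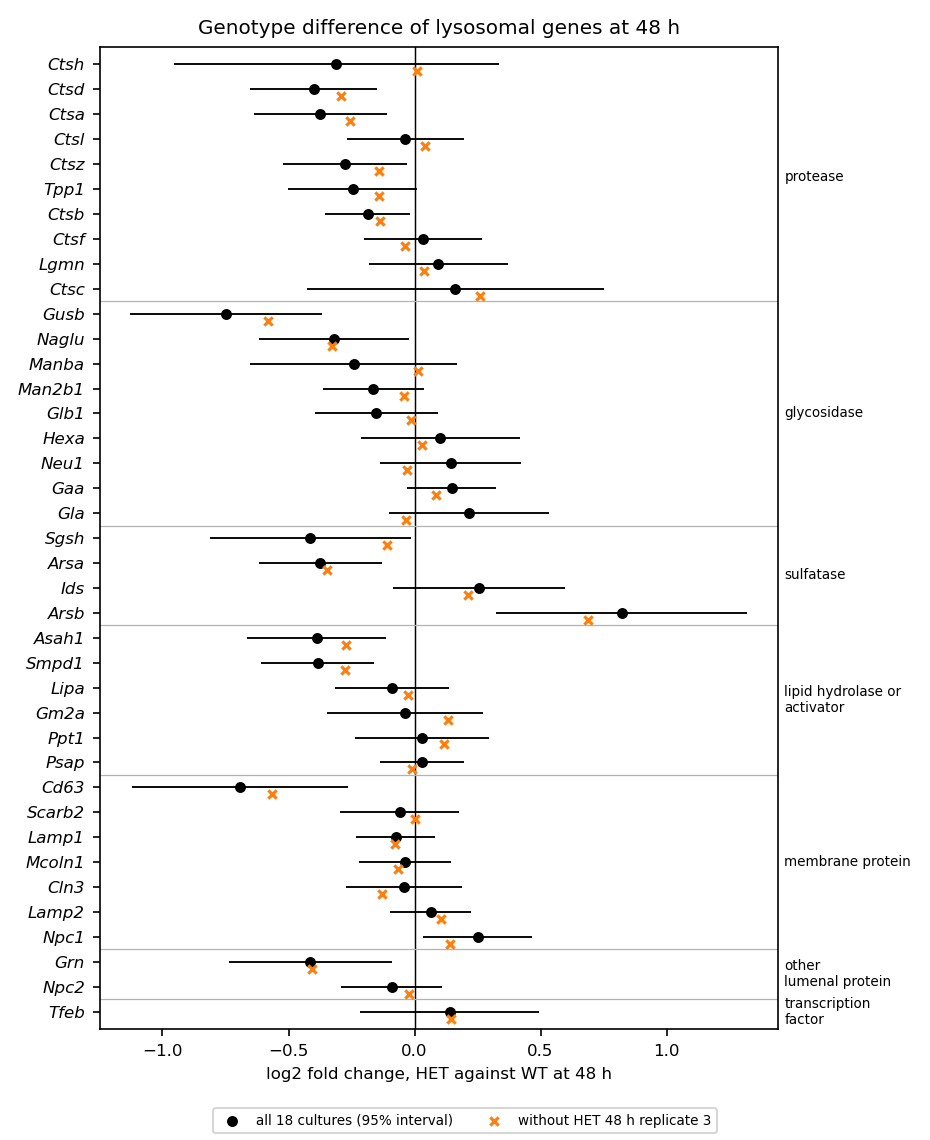
Log2 fold change of HET against WT at 48 h (x axis) for each of the 39 genes grouped by role, as black points with 95% intervals from all 18 cultures and orange crosses from the fit without HET 48 h replicate 3. Gusb and Cd63 lie farthest left and Arsb farthest right, and 28 of the 39 estimates are smaller in size without that culture.

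The authors' deposited table is named for edgeR, but which of its tests was used is not given in the sources used here. That table called 3 of the 39 between genotypes at 48 h, against 5.98% of all genes. In the authors' deposited table these were Gusb (log2 fold change -0.75, adjusted p = 0.00391), Cd63 (-0.72, adjusted p = 0.0120) and Arsb (0.82, adjusted p = 0.0126). At 12 and 24 h the authors' deposited table called 0 of the 39, against 0.0233% and 0.0116% of all genes. From 12 to 48 h the authors' deposited table called 25 of the 39 in WT, 22 higher and 3 lower, against 45.4% of all genes. In HET the authors' deposited table called 11 over that interval, all higher, against 15.5% of all genes.

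Other listed genes acidify lysosomes, deliver their enzymes, control them or place them in the cell. In WT from 12 to 48 h, when 47.1% of all genes were called, of 20 measured genes of the v-ATPase, the proton pump of the lysosome, 8 rose and 2 fell. Atp6v1g1 rose from 3608 ± 98.5 to 9530 ± 1044 (SD, n = 3 each; log2 fold change 1.40), and Atp6v0d2, at 21.4 ± 5.15 at 48 h, by 1.57, while Atp6ap1 rose by 0.55 and Atp6v0e2 fell by 0.55. Of 13 genes for enzyme sorting, 9 rose and 1 fell. Gnptg, a subunit of the enzyme that makes the mannose-phosphate tag (0.79), and its receptors Igf2r (0.70) and M6pr (0.67) rose, and the adaptor Gga2 fell (-0.50). Their medians were 0.11 for the pump and 0.39 for sorting, against 0.11 over all genes.

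The 21 genes of the Tfe3 and Mitf family and of the mTORC1 pathway, which holds these factors in the cytoplasm, were divided in WT, with 4 higher and 5 lower and a median of -0.11. Fnip1 (-0.71), Fnip2 (-0.58) and Tfe3 (-0.58) fell and Lamtor1 (0.55) rose. Tfe3 went from 3934 ± 312 to 2632 ± 193 (SD, n = 3 each). Of 19 genes that position lysosomes, 6 rose and 4 fell, with a median of -0.07. Rilp, the adaptor that links Rab7 to dynein, rose most (83.0 ± 17.2 to 228 ± 71.9, SD, n = 3 each; 1.41), Borcs8 (0.57) and Borcs5 (0.55) of the complex for outward transport rose, and Plekhm1 fell (-0.75). Among 28 other lysosomal genes, 13 rose and 2 fell, with a median of 0.35. The nuclease gene Dnase2a (1.97), the sulfatase gene Galns (1.66) and Cd68 (1.64), a membrane protein of phagocytes, rose most, and the protease gene Ctsk fell (-1.25).

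In HET over the same interval 14.2% of all genes were called and 32.0% had an unadjusted p under 0.05. The calls in these lists were 2 higher for the pump (Atp6v1g1 0.69 and Atp6ap1 0.26) and 1 higher for sorting (Gnptg 0.43). They were 1 lower for the Tfe3 and mTORC1 list (Fnip1 -0.49) and 0 for positioning, with 3 at an unadjusted p under 0.05. For the other lysosomal genes they were 5 higher (Galns 1.24, Cd68 1.03, Dnase2a 0.99, Scpep1 0.52 and Ctns 0.43). Without HET 48 h replicate 3, when 28.4% of all genes were called, they were 2 higher and 3 lower for the pump, 6 and 1 for sorting, 2 and 5 for the Tfe3 and mTORC1 list, 4 and 2 for positioning, and 7 and 1 for the other lysosomal genes. Between genotypes and for the difference of the time courses, limma called 0 genes of any of the 5 lists without a replicate block. At 48 h, 4 of 20 pump genes, 5 of 13 sorting genes, 2 of 21 of the Tfe3 and mTORC1 list, 3 of 19 positioning genes and 8 of 28 other lysosomal genes had an unadjusted p under 0.05, against 22.0% of all genes. These counts were 3, 5, 1, 0 and 3 without HET 48 h replicate 3, against 11.5% of all genes. With the replicate block at 48 h, limma called 2 pump genes, 3 sorting genes, 2 of the Tfe3 and mTORC1 list, 1 positioning gene (Rilp) and 7 other lysosomal genes, against 10.4% of all genes. With that block and without HET 48 h replicate 3 it called 0 in each list. At an unadjusted p under 0.05 there were 4, 3, 2, 2 and 6, against 16.6% of all genes.

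Markers of other cells moved over the same interval. The 12 macrophage markers summed to 18.2 to 29.0 FPKM at 12 h, 23.5 to 30.2 at 24 h and 28.3 to 34.2 at 48 h in WT, and to 17.01 to 27.6, 15.8 to 41.6 and 18.03 to 28.2 in HET. At 48 h the lowest WT sum (28.3) barely exceeded the highest HET sum (28.2). In WT 2 of the 12 rose (C1qc 1.88 and C1qa 1.60) and 2 fell (Ptprc -1.66 and Cd14 -1.31). In HET 0 of the 12 passed, with 1 at an unadjusted p under 0.05, against 32.0% of all genes. Neutrophil and red cell genes fell in 6 of 6 in WT and 5 of 6 in HET, led by Ltf (-5.47) in WT and Ngp (-5.04) in HET. Their sums ran from 6.64 to 234 FPKM at 12 h and from 3.80 to 5.21 FPKM at 48 h in WT, and from 5.86 to 68.3 FPKM at 48 h in HET. Neuron markers at 48 h summed to 5820 to 6341 FPKM in WT and 6389 to 6475 in HET. Of 8 fibroblast markers, 5 rose and 1 fell in WT and 4 rose in HET, led by Col1a2 (2.87) and Col1a1 (2.85). Endothelial markers fell in 3 of 7 in WT and 1 of 7 in HET (Cldn5 -2.76 and -1.56). Of 10 glial markers, 2 rose and 3 fell in WT and 2 fell in HET. Of 10 neuron markers, 3 rose and 5 fell in WT, led by Isl1 (1.83), Elavl4 (1.47) and Scn10a (-1.28), and 2 rose and 3 fell in HET. Without HET 48 h replicate 3 the HET counts higher and lower were 0 and 2 for macrophage markers, 0 and 6 for neutrophil and red cell genes, 5 and 0 for fibroblast, 0 and 1 for endothelial, 2 and 2 for glial and 3 and 4 for neuron markers. The part of these shifts in the changes of the 39 lysosomal genes was not tested.

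**Figure D5:**
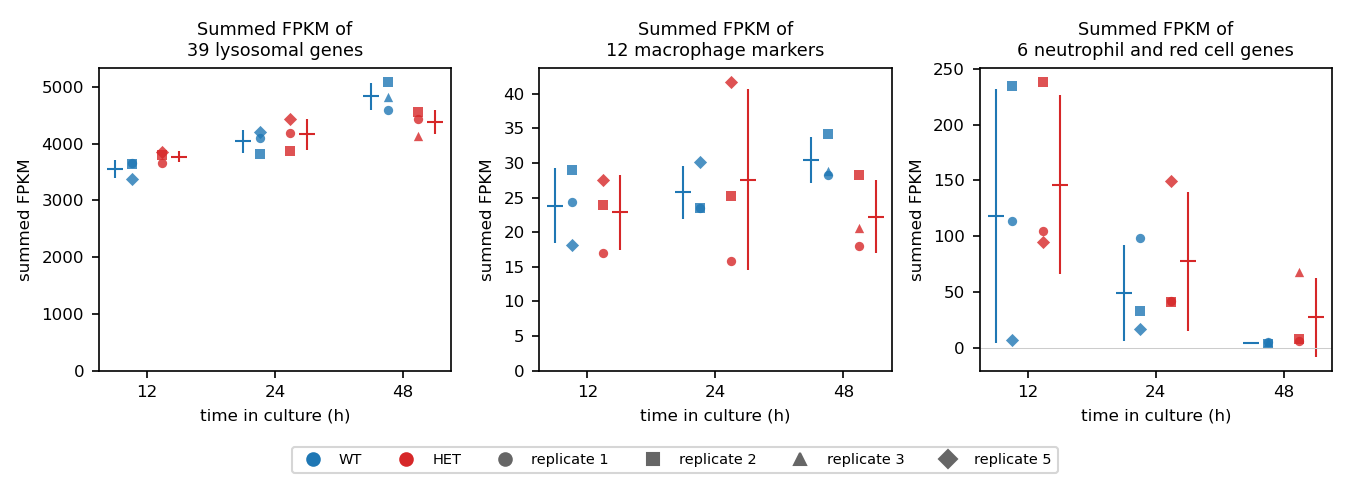
Summed FPKM (y axis) against time in culture for the 39 lysosomal genes, 12 macrophage markers and 6 neutrophil and red cell genes, with a point per culture (blue WT, red HET, marker shapes for replicate numbers) and bars for the mean and SD (n = 3). The lysosomal sum is between 3380 and 3859 at 12 h and between 4143 and 5081 at 48 h, and HET 48 h replicate 3 has the highest neutrophil and red cell sum of its time.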

How the data were processed

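RNA-seq values of 18 cultures were read from a table of 17198 genes, grouped and numbered by the sample titles. Per the submitters' processing notes, CASAVA 1.8.2, edgeR and the mouse build mm10 were used, with no roles given. The aligner, the counting, its use of strand, and the gene filter are not given in the sources used here. Per the file headers, the authors deposited normalized counts, which are a signal and not raw counts: none was 0 and column totals ran from 41509705 to 41509874. The authors also deposited FPKM values, log2 fold changes and adjusted p-values, and per-sample signal columns with another scaling (totals from 39465712 to 44213485). Depth is therefore unknown, and no counting interval or floor was computed. Log values spanned 15 of 17 possible dimensions, so the deposited values lack 2 directions of variation, removed by a method not given in the sources used here. Another 24 columns of per-sample values were not used.

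As the values were not counts, the count test of the design was replaced by limma 3.58.1 in R 4.3.3. Values were taken as log2(normalized count + 1), which understates changes of low genes, and a filter on a mean of 1 removed 0 genes. All 18 cultures were fitted with 1 coefficient per group (lmFit, eBayes with trend; degrees of freedom were 12 residual and 4.97 prior). The 12 residual degrees of freedom do not allow for the 2 removed directions, so the printed SEs and p-values may be too small and the intervals too narrow. At 48 h, where the deviations of all 3 same-numbered pairs correlated over 0.1, counts between genotypes are given without and with a replicate block. Fold changes, SEs and intervals there are from the fit without it. The replicate block was 1 term per replicate number over all 18 cultures, so it also joined the same number across times. Only the separate block at each time paired WT and HET cultures within a time. The labels do not say what a number marks. Benjamini-Hochberg adjustment ran over all genes within each of 11 comparisons, with a threshold of 0.05. The method was tested on simulated data with independent noise in each culture. That simulation held no shared replicate numbers and no removed directions, so it could not check their effect. Of the listed genes 3 were not measured and 5 were matched by older symbols. Genes with values in every culture were the 6 with the lowest p in HET against WT averaged over time, as fewer than 3 members passed between genotypes, and the 4 largest rises and 4 largest falls in WT from 12 to 48 h. From other lists up to 4 called genes were named. Members and lists were chosen with earlier results of these data known. Promoters came from RefSeq (GRCm38.p6). Alternatives were another scaling, quantile normalization, a pseudocount of 0.1, other filters, the replicate number and the removed directions as covariates, and leaving out each culture.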

Additional observations from a re-analysis of the deposited data

How the results depend on the processing

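Counts of lysosomal genes past the limma threshold moved with the replicate block, with the treatment of the removed directions and with single cultures. With the replicate block, counts were 6 between genotypes at 48 h (1 higher, 5 lower, 10.4% of all genes), 8 in WT from 12 to 24 h (7.08%), 20 in HET from 12 to 48 h (29.6%) and 7 in HET from 24 to 48 h (12.1%). With the replicate block and the removed directions they were 7 (10.3%), 12 (12.4%), 20 (29.4%) and 8 (12.4%) in that order, 1 for the genotypes averaged over time (4.12%) and 16 in HET from 12 to 24 h (27.8%). With the replicate block within each time, chosen after seeing the data, 9 genes passed between genotypes at 48 h (2 higher, 7 lower, 12.3% of all genes). The block combined with leaving out HET 48 h replicate 3, also chosen after seeing the data, gave 0. At 12 and 24 h the cultures were taken to share only a number: r over all 9 pairs ran from -0.21 to 0.46 (mean 0.17, 7 of 9 over 0.1), and 8 of 9 correlated best with their own number. The cause of these moves was not tested. With the authors' other scaling the counts were 2 in WT from 12 to 24 h and 5 in HET from 12 to 48 h. That scaling put the median of all genes from 12 to 48 h in WT at 0.01 in place of 0.11, and that of the 39 at 0.26. Quantile normalization gave 1 between genotypes at 48 h (Gusb, -0.71) and 0 in HET from 24 to 48 h, and the removed directions alone gave 5 for the latter. Leaving out 1 culture gave 0 to 0 between genotypes at 12 h, at 24 h and averaged, 0 to 3 at 48 h, 0 to 0 for the difference of the time courses, 0 to 7, 23 to 29 and 10 to 21 in WT (12 to 24, 12 to 48 and 24 to 48 h), and 5 to 12, 0 to 20 and 0 to 8 in HET. A pseudocount of 0.1 moved no count of members. The fit without a filter was the main fit again, as the filter removed 0 genes, so it tested nothing. A minimum mean of 10 gave 28 in WT and 10 in HET from 12 to 48 h in place of 27 and 9. Dynlrb1 was lower in HET in every setting run. The sign was followed for 75 gene results, which were the calls of members in the main fit and Dynlrb1 between genotypes. Of these, 0 reversed. Members without a call were not followed in this way. Some of them changed sign between genotypes at 48 h without HET 48 h replicate 3, such as Ctsh (-0.31 to 0.01), Gla (0.22 to -0.04) and Manba (-0.24 to 0.02). DESeq2 was not run, as the values are not counts.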
